A study of Mus musculus with 11 samples.

Results

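The 42 genes described here encode the machinery of mitosis and chromosome segregation. They were chosen as a list of named genes, looked up by symbol in a table of estimated counts for 34866 mouse gene identifiers, and all 42 were found once and passed the filter on low counts. Gene expression had been measured by RNA sequencing of bulk gastric corpus mucosa from mice of 4 genotypes: wild-type control (2 samples), ATP4B-DTR (3 samples), GIF-DTR (3 samples) and GIF/ATP4B-DTR (3 samples). DTR is the receptor for diphtheria toxin, which makes mouse cells sensitive to the toxin, and the series states that its engineered mice serve to ablate chief and parietal cells of the stomach. Atp4b encodes a subunit of the parietal cell's proton pump, and Gif encodes intrinsic factor, made by chief cells in the mouse. The GIF/ATP4B-DTR genotype names both genes. The driver of each receptor beyond these names, the toxin dose, the time of collection, and the age and sex of the mice are not given in the sources used here. The labels do not say whether toxin was given to the controls, nor that each sample came from a separate animal, so the p-values measure the spread between these samples.

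Mitosis is driven by cyclin-dependent kinase 1 (Cdk1) with its cyclins, and by the Aurora, Polo and NIMA-related kinases that act beside it. Chromosomes are attached to the spindle through kinetochores built on centromeric chromatin. The spindle assembly checkpoint holds the anaphase-promoting complex (APC/C) in check until every chromosome is attached, after which separase cuts cohesin and the sister chromatids part. Transcripts of many of these genes accumulate in the G2 and M phases, and in the stomach corpus the cells that normally divide lie mainly in the isthmus of the gland, while parietal and chief cells are mature and rarely divide.

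Sample totals ran from 20.7 to 27.9 M (mega) estimated counts, and levels below are counts per M (CPM) after TMM scaling, which sets libraries level on a trimmed mean of their gene ratios. The 2 genes in the names of the lines were low in the lines named for them. Atp4b lay at 4363 CPM or more in the controls and at 683 CPM or less in every ATP4B-DTR and GIF/ATP4B-DTR sample, and Gif at 702 CPM or more in the controls and at 218 CPM or less in every GIF-DTR and GIF/ATP4B-DTR sample. The summed markers of the other cell type were also below both controls in each single line. The 7 parietal cell markers summed to 16850 and 17970 CPM in the controls and to 7668 to 9898 CPM in GIF-DTR, where 4 of 7 fell, and Atp4b itself had 2135 to 3469 CPM there. The 4 chief cell markers summed to 71610 and 157300 CPM in the controls and to 14330 to 50280 CPM in ATP4B-DTR, where 0 of 4 passed the test. The controls differed from each other in markers of other tissue layers: summed over marker lists, fibroblast genes gave 49.7 CPM for the first control and 512 CPM for the second, and smooth muscle genes 359 and 2134 CPM. Expression of the Y-linked genes Ddx3y and Eif2s3y was present in both controls, in ATP4B-DTR 1 and in all GIF/ATP4B-DTR samples, and stood at no more than 0.17 CPM in ATP4B-DTR 2 and 3 and in all GIF-DTR samples. Genotype and Y-linked expression therefore overlap in part, and results with a term for the latter are given below.

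Mitosis genes were higher in all 3 lines than in control. Against control, 40 of the 42 genes rose in ATP4B-DTR, 39 rose in GIF-DTR and 41 rose in GIF/ATP4B-DTR, and 0 fell in any of them (edgeR quasi-likelihood test on all 11 samples, Benjamini-Hochberg adjusted p under 0.05 over 14889 genes). Of all genes tested, 12.2% rose and 9.39% fell in ATP4B-DTR, 9.97% rose and 6.82% fell in GIF-DTR, and 18.2% rose and 15.4% fell in GIF/ATP4B-DTR. The median log2 fold change over the 42 genes was 1.53 for ATP4B-DTR, 1.42 for GIF-DTR and 1.73 for GIF/ATP4B-DTR, which are folds of 2.90, 2.68 and 3.31, while the median over all genes tested was between −0.04 and −0.01. A set of 38 genes rose in all 3 lines, and the share of all genes that did so was not computed. For 41 genes, every one of the 9 samples of the lines lay above both controls, and the matching joint share of all genes was not computed. Taken 1 line at a time, the count of mitosis genes with every sample above both controls was again 41 for each line. Over all genes tested, 25.3% had every ATP4B-DTR sample above both controls, 25% every GIF-DTR sample and 29.1% every GIF/ATP4B-DTR sample. The 3 comparisons share the same 2 controls and are not independent of one another. In bulk tissue, a larger number of dividing cells, a larger share of them in the sample and more mitotic RNA per dividing cell cannot be told apart.

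**Figure D1:**
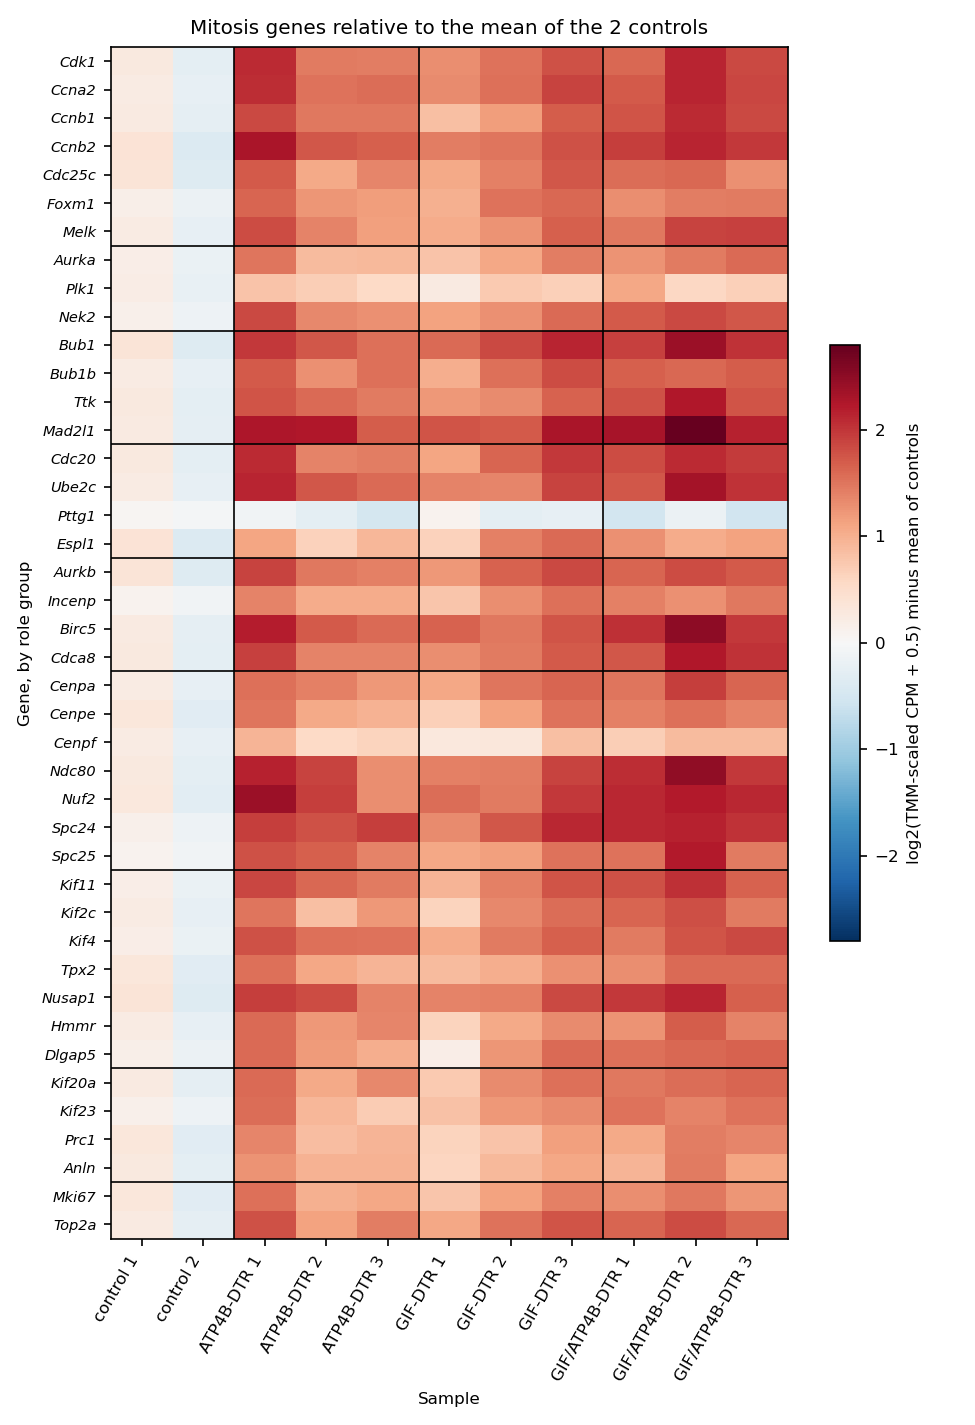
Level of the 42 mitosis genes (rows, by role, with lines between the 9 role groups) in each of the 11 samples (columns), as log2 of TMM-scaled CPM plus 0.5, minus the mean of the 2 controls; red is above that mean and blue is below it. The samples of the 3 lines are red for 41 genes, while Pttg1 is pale or blue in most of them, and control 1 is redder than control 2 in every row.

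Summed over the 42 genes, the level was 785 CPM for control 1 and 553 CPM for control 2. Samples 1 to 3 of ATP4B-DTR reached 2130, 1588 and 1551 CPM, those of GIF-DTR 1294, 1593 and 1953 CPM, and those of GIF/ATP4B-DTR 1895, 2254 and 1949 CPM. The lowest sample of a line thus lay well above the higher control, and the 3 lines overlapped each other. Individual genes spanned a wide range of levels. Per kilobase of exon (the union of annotated exons), the polo-like kinase gene Plk1 had the highest control mean, at 25.2 CPM per kb, and the phosphatase gene Cdc25c the lowest, at 0.454. In GIF/ATP4B-DTR Plk1 remained highest at 43.5 CPM per kb, followed by Ccnb2 at 35.2, Ube2c at 33.4 and Cdc20 at 30.4. For 6 genes (Ccna2, Cenpa, Hmmr, Kif20a, Prc1 and Top2a) the estimated counts were fractional in all 11 samples, as when reads are divided among matching sequences, and their levels are less certain. Another 16 genes had deposited counts with no decimals in any sample (no tolerance was applied).

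The sequences around the annotated starts of these genes are shown because the genes moved together. Genes of the G2 and M phases are known for a pair of promoter elements, the cell cycle genes homology region (CHR), to which the MuvB core binds as part of the DREAM repressor or together with B-MYB and FOXM1, and CCAAT boxes, which bind the factor NF-Y. Windows of 300 bases, from 250 before to 50 after the annotated start, were taken from RefSeq (GRCm38.p6) for 33 of the 42 genes. Each was searched on both strands for the CHR letters TTTGAA or TTCGAA and for CCAAT; a CHR and a CCAAT match can share at most 1 base. In the 6 sequences below, from 150 bases before the start to 30 bases after it and read 5′ to 3′ on the gene's strand, capitals mark every match, and matches of the other strand appear as TTCAAA or ATTGG. Cdk1, Ccnb2, Cdc20 and Top2a represent windows with both elements, and Mad2l1 and Pttg1 are the genes with the largest and smallest log2 fold changes of the 42 in each line.
Cdk1: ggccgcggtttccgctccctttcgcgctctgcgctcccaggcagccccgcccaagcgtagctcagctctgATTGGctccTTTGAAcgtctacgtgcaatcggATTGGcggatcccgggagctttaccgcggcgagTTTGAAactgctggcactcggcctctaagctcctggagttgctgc
Ccnb2: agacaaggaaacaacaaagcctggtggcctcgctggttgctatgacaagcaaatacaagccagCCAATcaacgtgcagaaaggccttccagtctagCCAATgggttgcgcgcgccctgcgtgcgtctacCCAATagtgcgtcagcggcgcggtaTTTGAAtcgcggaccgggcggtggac
Cdc20: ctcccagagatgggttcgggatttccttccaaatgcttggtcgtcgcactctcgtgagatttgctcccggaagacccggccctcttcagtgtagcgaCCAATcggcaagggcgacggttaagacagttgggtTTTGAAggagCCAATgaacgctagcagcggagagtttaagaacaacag
Top2a: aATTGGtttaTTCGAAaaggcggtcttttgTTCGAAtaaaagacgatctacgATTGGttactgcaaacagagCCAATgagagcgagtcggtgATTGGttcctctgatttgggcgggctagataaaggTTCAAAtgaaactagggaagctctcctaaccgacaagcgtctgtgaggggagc
Mad2l1: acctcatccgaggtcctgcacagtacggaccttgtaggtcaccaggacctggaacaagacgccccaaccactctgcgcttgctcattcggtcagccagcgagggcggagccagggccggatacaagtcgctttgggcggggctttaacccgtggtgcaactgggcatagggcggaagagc
Pttg1: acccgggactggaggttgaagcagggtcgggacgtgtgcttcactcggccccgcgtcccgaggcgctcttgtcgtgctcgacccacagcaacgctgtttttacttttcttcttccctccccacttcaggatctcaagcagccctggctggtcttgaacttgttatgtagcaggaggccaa

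The stretches lie at chr10:69352883-69353062 (Cdk1, minus strand), chr9:70421525-70421704 (Ccnb2, minus strand), chr4:118437314-118437493 (Cdc20, minus strand), chr11:99024160-99024339 (Top2a, minus strand), chr6:66535071-66535250 (Mad2l1, plus strand) and chr11:43425952-43426131 (Pttg1, minus strand). The GENCODE and RefSeq starts differ for all of these but Top2a, and by most for the last 2. The GENCODE start of Pttg1 lies upstream of the RefSeq start, so that its stretch falls inside the GENCODE gene, and the GENCODE start of Mad2l1 lies downstream of its stretch. Positions below count from the RefSeq start. Windows at the GENCODE starts were not searched. Counting the first transcribed base as 1 and the base before it as −1, the CHR match nearest the start began at −15 in Cdk1, 5 in Ccnb2, −18 in Cdc20 and −23 in Top2a. CCAAT matches stood upstream of it, beginning at −80 and −48 in Cdk1, at −87, −54 and −21 in Ccnb2, at −149, −98, −78 and −58 in Top2a and at −53 in Cdc20, with another at −8 in Cdc20. A CHR match was present in 24 of the 33 genes (72.7%), against 21.7% of 27025 genes with such windows. CCAAT was also present in 24 of 33 (72.7%), against 41.1%, and both elements in 21 of 33 (63.6%), against 8.61%. In a list of 38 DNA replication and S phase genes, 30 had windows, of which 20% held a CHR match, 60% CCAAT and 16.7% both, so that for CCAAT the S phase genes were nearer to the mitosis genes. Neither element occurred in the windows of 6 mitosis genes: Nuf2, Nusap1, Melk, Mad2l1, Birc5 and Pttg1. A match is a description of letters and not a mapped site, and the absence of one speaks only for this window. The genes without a match included Mad2l1 and Birc5, which rose in all 3 lines, as well as Pttg1, which did not. Any part of these elements in the levels was not tested.

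All 7 genes of the cyclin-dependent kinase engine and its activators rose in each line, with median log2 fold changes of 1.62 for ATP4B-DTR, 1.54 for GIF-DTR and 1.88 for GIF/ATP4B-DTR. Cdk1, the kinase that drives entry into mitosis, stood at 22.4 and 15.2 CPM in controls 1 and 2, against 80.3, 51.6 and 50.6 across the ATP4B-DTR samples, 46.6, 53.5 and 64.4 across the GIF-DTR samples and 57.02, 82.5 and 68.3 across the GIF/ATP4B-DTR samples. Every sample of the lines lay above the higher control. The log2 fold changes were 1.69 ± 0.26, 1.54 ± 0.26 and 1.88 ± 0.27 (SE), listed here and below for the ATP4B-DTR, GIF-DTR and then GIF/ATP4B-DTR line (edgeR adjusted p = 0.00181, 0.00422 and 0.000477). Ccna2 encodes cyclin A2, which acts from S phase into early mitosis. It measured 30.4 and 22 CPM in controls 1 and 2, against 109, 75.1 and 77.7 across the ATP4B-DTR samples, 65.6, 76.8 and 97.01 across the GIF-DTR samples and 86.7, 115 and 95.8 across the GIF/ATP4B-DTR samples. The lowest sample of a line, GIF-DTR 1, was well clear of control 1, and the fitted folds were 3.33, 3.04 and 3.78 in the same order (edgeR adjusted p = 0.000905, 0.00227 and 0.00022). Of the B-type cyclins, Ccnb1 rose by log2 fold changes of 1.62 ± 0.26, 1.29 ± 0.26 and 1.92 ± 0.26, and Ccnb2 by 1.91 ± 0.25, 1.55 ± 0.25 and 2.00 ± 0.25. Cdc25c, whose phosphatase removes the inhibitory phosphates of Cdk1, was the least abundant of the 42 genes per kilobase and rose 2.89, 2.96 and 3.099-fold. Foxm1, a transcription factor of G2 and M phase genes, rose 2.65, 2.74 and 2.72-fold, and the kinase gene Melk 2.85, 2.59 and 3.48-fold.

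Of the 3 kinases of mitotic entry and the centrosome, 3 rose in ATP4B-DTR and GIF/ATP4B-DTR and 2 in GIF-DTR. Plk1, polo-like kinase 1, acts in centrosome maturation, kinetochore attachment and cytokinesis, and stood at 63.6 and 47.5 CPM in controls 1 and 2, against 95.6, 88.8 and 81.5 across the ATP4B-DTR samples, 65.3, 92.05 and 87.4 across the GIF-DTR samples and 117, 82 and 88.2 across the GIF/ATP4B-DTR samples. GIF-DTR 1 lay next to control 1, and GIF/ATP4B-DTR 1 was the highest sample. Plk1 rose in ATP4B-DTR (log2 fold change 0.67 ± 0.20, edgeR adjusted p = 0.0333) and in GIF/ATP4B-DTR (0.79 ± 0.20, adjusted p = 0.0114), while in GIF-DTR its log2 fold change of 0.56 ± 0.20 missed the threshold (adjusted p = 0.0797). Plk1 was no longer past the threshold in ATP4B-DTR without control 2, without ATP4B-DTR 1, without ATP4B-DTR 2 or with a term for Y-linked expression, where its log2 fold changes were 0.48, 0.61, 0.67 and 0.78. It lost the call in GIF/ATP4B-DTR without control 2. It passed in GIF-DTR without GIF-DTR 1, by the DESeq2 Wald test and with scaling by library totals alone. Nek2, a kinase that separates the centrosomes, stood at 8.44 and 6.93 CPM in controls 1 and 2, against 28.99, 20.3 and 19.2 across the ATP4B-DTR samples, 17.3, 19.3 and 23.8 across the GIF-DTR samples and 26.2, 28.8 and 26.7 across the GIF/ATP4B-DTR samples. Its groups did not overlap with control, and its log2 fold changes were 1.57 ± 0.21, 1.39 ± 0.21 and 1.82 ± 0.22 (edgeR adjusted p = 0.000866, 0.00254 and 0.000169). Aurka, the Aurora kinase of centrosomes and spindle poles, rose 2.22, 2.23 and 2.77-fold.

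The 4 spindle checkpoint genes rose in all 3 lines, with medians of 1.74, 1.72 and 2.11 on the log2 scale, the highest of the 9 role groups in each line. Mad2l1 encodes the checkpoint protein that binds and restrains Cdc20, and lies at chr6:66535390-66547220 (GRCm38, GENCODE). It stood at 13.4 and 9.42 CPM in controls 1 and 2, against 56.2, 55.3 and 37.6 across the ATP4B-DTR samples, 39.4, 37.98 and 56.6 across the GIF-DTR samples and 57.4, 80.3 and 52.1 across the GIF/ATP4B-DTR samples. The highest sample, GIF/ATP4B-DTR 2, reached several times the level of either control. Its log2 fold changes of 2.12 ± 0.28, 1.97 ± 0.28 and 2.47 ± 0.29 (edgeR adjusted p = 0.000851, 0.00215 and 0.000172) were the highest of the 42 genes in each line. Bub1b, whose BubR1 protein forms part of the mitotic checkpoint complex, stood at 13.2 and 9.42 CPM in controls 1 and 2, against 37.6, 27.6 and 33.2 across the ATP4B-DTR samples, 23.2, 33.6 and 41.05 across the GIF-DTR samples and 36.4, 34.9 and 37.03 across the GIF/ATP4B-DTR samples. GIF-DTR 1 was the lowest sample of the lines and still above control 1, and the fitted folds were 2.901, 2.88 and 3.19 (edgeR adjusted p = 0.00174, 0.00292 and 0.000483). Bub1, a kinase of unattached kinetochores, rose 3.48, 3.76 and 4.502-fold, and Ttk, the Mps1 kinase at the head of the checkpoint, 3.22, 2.79 and 4.12-fold.

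The genes that trigger anaphase did not behave as a unit. Cdc20, the activator through which the checkpoint acts on the APC/C, stood at 17.1 and 11.7 CPM in controls 1 and 2, against 62.1, 38 and 39.05 across the ATP4B-DTR samples, 30.97, 45.2 and 57.1 across the GIF-DTR samples and 51.8, 61.9 and 56.8 across the GIF/ATP4B-DTR samples. Ube2c, the ubiquitin-conjugating enzyme of that complex, had 24.4 and 17.5 CPM in controls 1 and 2, against 92.1, 70.7 and 62.8 across the ATP4B-DTR samples, 54.9, 53.95 and 77.9 across the GIF-DTR samples and 69.7, 105 and 85.6 across the GIF/ATP4B-DTR samples. Both lay above control in every sample of the lines. Log2 fold changes were 1.68 ± 0.30, 1.62 ± 0.30 and 1.98 ± 0.30 for Cdc20 (edgeR adjusted p = 0.0033, 0.00605 and 0.000726) and 1.84 ± 0.26, 1.57 ± 0.25 and 2.05 ± 0.26 for Ube2c (0.000998, 0.00332 and 0.000246). Espl1, which encodes separase, stood at 8.66 and 4.88 CPM in controls 1 and 2, against 14.6, 10.4 and 12.9 across the ATP4B-DTR samples, 10.4, 18.1 and 20.7 across the GIF-DTR samples and 16.6, 13.97 and 14.7 across the GIF/ATP4B-DTR samples. Its controls were spread widely, and the highest values were in GIF-DTR 2 and 3. Espl1 rose in GIF-DTR (log2 fold change 1.27 ± 0.31, edgeR adjusted p = 0.0193) and GIF/ATP4B-DTR (1.15 ± 0.31, adjusted p = 0.0146), whereas its 0.90 ± 0.31 in ATP4B-DTR had an adjusted p of 0.0592. Espl1 lost its call in GIF-DTR without control 2, GIF-DTR 2 or GIF-DTR 3, with a term for Y-linked expression, and with only the groups compared in the fit, where its log2 fold changes were 0.92, 1.19, 1.07, 1.59 and 1.27. It lost its call in GIF/ATP4B-DTR without control 2. It gained one in ATP4B-DTR without control 1 or GIF-DTR 1, by the DESeq2 Wald test, with library totals alone, and with at least 10 counts required in every sample.

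Pttg1 encodes securin, the inhibitor of separase that the APC/C destroys at anaphase, and was the single gene of the 42 genes that rose in none of the lines. It lies at chr11:43420250-43426251 (GRCm38, GENCODE) and stood at 21.9 and 20.6 CPM in controls 1 and 2, against 19.96, 17.4 and 14.9 across the ATP4B-DTR samples, 22.8, 17.4 and 18.1 across the GIF-DTR samples and 14.7, 18.8 and 14.5 across the GIF/ATP4B-DTR samples. All ATP4B-DTR and GIF/ATP4B-DTR samples lay below both controls, while GIF-DTR 1 lay above them. The log2 fold changes were −0.29 ± 0.18, −0.13 ± 0.18 and −0.41 ± 0.18 (edgeR adjusted p = 0.284, 0.677 and 0.0984), and with scaling by library totals alone they were 0.02 in ATP4B-DTR and 0.22 in GIF-DTR. In GIF/ATP4B-DTR it fell past the threshold only when GIF/ATP4B-DTR 2 was left out (adjusted p = 0.0495). Per kilobase, Pttg1 was among the more abundant of the 42 genes in control (10.6 CPM per kb), above Ccnb2 (8.78), Ube2c (8.05) and Cdc20 (7.72). In GIF/ATP4B-DTR it was below these 3, at 7.99 CPM per kb. Its counts were fractional in only 1 sample.

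**Figure D2:**
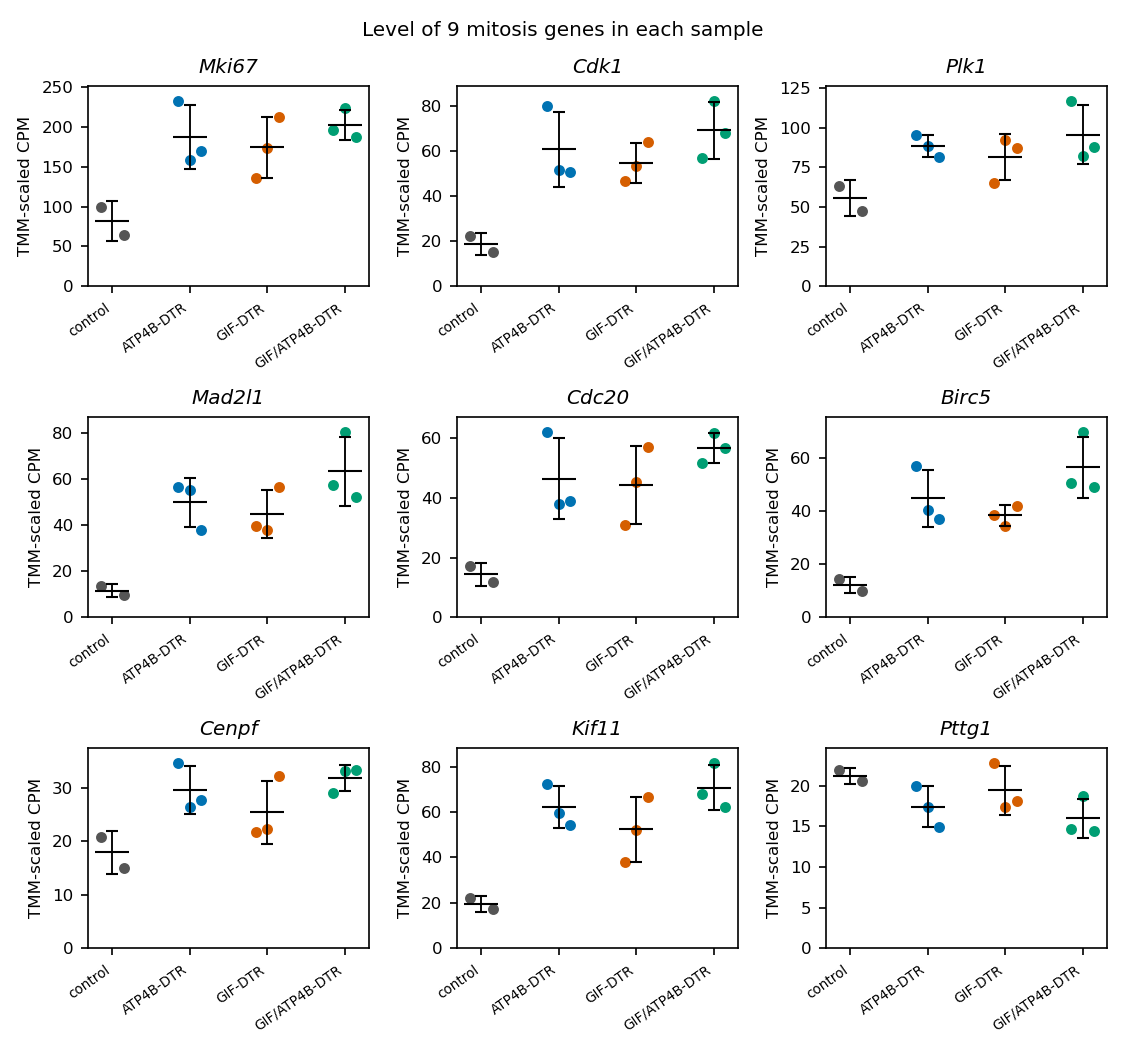
TMM-scaled CPM of 9 mitosis genes in each sample (points), with the group mean (horizontal mark) and SD (bars), for control (n = 2) and the 3 lines (n = 3 each); every axis starts at 0. Cdk1, Mad2l1, Cdc20, Birc5, Kif11 and Mki67 lie above both controls in every sample of the lines, Plk1 and Cenpf do so by less, and Pttg1 lies below both controls in 8 of the 9.

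The chromosomal passenger complex, which corrects faulty attachments and then guides cytokinesis, had 4 of 4 genes higher in each line. Birc5 (survivin), its targeting subunit, stood at 14.3 and 9.92 CPM in controls 1 and 2, against 56.8, 40.4 and 36.9 across the ATP4B-DTR samples, 38.4, 34.3 and 41.9 across the GIF-DTR samples and 50.4, 69.7 and 48.8 across the GIF/ATP4B-DTR samples. Its highest sample was GIF/ATP4B-DTR 2, and no sample of a line came near the controls. The log2 fold changes were 1.88 ± 0.25, 1.65 ± 0.24 and 2.21 ± 0.25 (edgeR adjusted p = 0.00078, 0.00227 and 0.000137). Incenp, the scaffold that activates Aurora B, stood at 17.3 and 15.2 CPM in controls 1 and 2, against 43.3, 33.9 and 34.1 across the ATP4B-DTR samples, 27.99, 40.9 and 48.5 across the GIF-DTR samples and 43.99, 40.3 and 45.7 across the GIF/ATP4B-DTR samples. Its controls were close together and GIF-DTR 1 was the nearest sample to them, with folds of 2.28, 2.41 and 2.66 over control. Aurkb, the kinase itself, rose 3.09, 3.05 and 3.36-fold, and Cdca8 (borealin) 3.02, 2.86 and 4.102-fold.

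Of the 7 centromere and kinetochore genes, 7 rose in ATP4B-DTR and GIF/ATP4B-DTR and 6 in GIF-DTR. Cenpa, the histone H3 variant that defines the centromere, stood at 20.7 and 14.9 CPM in controls 1 and 2, against 51.8, 47.6 and 41.4 across the ATP4B-DTR samples, 38.1, 50.5 and 55.5 across the GIF-DTR samples and 50.6, 69.1 and 55.5 across the GIF/ATP4B-DTR samples. Its groups stood apart from control, with log2 fold changes of 1.40 ± 0.21, 1.43 ± 0.21 and 1.71 ± 0.22 (edgeR adjusted p = 0.0015, 0.00228 and 0.000225). Cenpe, a kinesin that carries chromosomes toward the spindle equator, stood at 19.3 and 12.1 CPM in controls 1 and 2, against 44.1, 32.5 and 30.5 across the ATP4B-DTR samples, 24.6, 34.2 and 44.9 across the GIF-DTR samples and 41.5, 45.5 and 40.7 across the GIF/ATP4B-DTR samples. GIF-DTR 1 was the lowest sample of a line, and the folds were 2.27, 2.196 and 2.7. Cenpf, a large protein of the outer kinetochore, stood at 20.8 and 15.1 CPM in controls 1 and 2, against 34.7, 26.4 and 27.7 across the ATP4B-DTR samples, 21.8, 22.3 and 32.2 across the GIF-DTR samples and 28.9, 33.2 and 33.3 across the GIF/ATP4B-DTR samples. GIF-DTR 1 and 2 exceeded control 1 by little. Cenpf rose in ATP4B-DTR (log2 fold change 0.72 ± 0.21, edgeR adjusted p = 0.0306) and GIF/ATP4B-DTR (0.83 ± 0.21, adjusted p = 0.0112) but not past the threshold in GIF-DTR (0.50 ± 0.21, adjusted p = 0.123), and the ATP4B-DTR call was lost without control 2 or without ATP4B-DTR 1 and the GIF/ATP4B-DTR call without control 2. With library totals alone Cenpf was called in GIF-DTR. Of the 4 subunits of the Ndc80 complex, which grips microtubules, Ndc80 (folds of 3.76, 3.198 and 4.88), Nuf2 (3.995, 3.34 and 4.64) and Spc24 (3.91, 3.59 and 4.55) were among the 5 highest of the 42 genes in each line. The remaining subunit gene, Spc25, rose 3.18, 2.47 and 3.54-fold, below the median of the 42 genes in GIF-DTR.

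All 7 spindle motor and microtubule genes rose in each line, with medians of 1.41, 1.28 and 1.70. Kif11, the kinesin that pushes spindle poles apart, stood at 21.99 and 17.1 CPM in controls 1 and 2, against 72.3, 59.8 and 54.3 across the ATP4B-DTR samples, 38.02, 52.1 and 66.8 across the GIF-DTR samples and 67.99, 81.7 and 62.4 across the GIF/ATP4B-DTR samples. GIF-DTR 1 was the lowest of the lines' samples and the groups did not overlap with control. The log2 fold changes were 1.67 ± 0.24, 1.42 ± 0.24 and 1.85 ± 0.24 (edgeR adjusted p = 0.00116, 0.00369 and 0.000286). Nusap1, a protein that bundles spindle microtubules around chromatin, stood at 17.6 and 10.6 CPM in controls 1 and 2, against 54.1, 49.5 and 36.9 across the ATP4B-DTR samples, 36.4, 37.5 and 50.6 across the GIF-DTR samples and 55.2, 61.8 and 44.8 across the GIF/ATP4B-DTR samples, with folds of 3.31, 2.93 and 3.81. The microtubule depolymerase gene Kif2c rose 2.41, 2.43 and 3.26-fold, the chromokinesin gene Kif4 3.19, 2.75 and 3.34-fold, and Tpx2, which activates Aurora A on the spindle, 2.29, 2.07 and 2.81-fold. Hmmr, a spindle-associated protein, rose 2.65, 2.05 and 2.77-fold. Dlgap5, which stabilises kinetochore fibres, rose 2.53, 2.23 and 3.15-fold with adjusted p-values of 0.0213, 0.0447 and 0.00482, the weakest of those called in GIF-DTR: GIF-DTR 1 (7.52 CPM) was nearly level with control 1 (7.41 CPM), and the call there was lost in 9 of the 11 fits that each left out 1 sample.

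The 4 genes of the spindle midzone and cytokinesis rose in all 3 lines by smaller factors, with medians of 1.10, 1.01 and 1.40 on the log2 scale. Prc1, which cross-links the microtubules of the midzone, stood at 23.9 and 15.3 CPM in controls 1 and 2, against 49.98, 35.2 and 37.3 across the ATP4B-DTR samples, 29.98, 33.7 and 43.1 across the GIF-DTR samples and 40.7, 52.6 and 50.4 across the GIF/ATP4B-DTR samples. GIF-DTR 1 and 2 were the nearest to control 1, and the log2 fold changes were 1.05 ± 0.24, 0.86 ± 0.23 and 1.29 ± 0.24 (edgeR adjusted p = 0.00972, 0.0299 and 0.002). Kif20a, a kinesin that delivers the passenger complex to the midzone, stood at 16.1 and 11.03 CPM in controls 1 and 2, against 40.8, 28.2 and 34.6 across the ATP4B-DTR samples, 22.3, 34.01 and 39.6 across the GIF-DTR samples and 38.1, 40.2 and 41.95 across the GIF/ATP4B-DTR samples. Its folds were 2.54, 2.36 and 2.95. Kif23, of the centralspindlin complex, rose 2.199, 2.23 and 2.84-fold, and Anln (anillin), a scaffold of the contractile ring, 2.102, 1.82 and 2.27-fold. Without GIF-DTR 2 or without GIF-DTR 3, Prc1 and Anln were no longer called in GIF-DTR.

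Both genes of the mitotic chromosome rose. Mki67, which coats condensed chromosomes and is the common histological marker of dividing cells, stood at 99.7 and 63.8 CPM in controls 1 and 2, against 233, 159 and 170.4 across the ATP4B-DTR samples, 136, 174 and 213 across the GIF-DTR samples and 196, 224 and 188 across the GIF/ATP4B-DTR samples. The gap between the controls was about as wide as that between control 1 and the lowest sample of a line, GIF-DTR 1. Its log2 fold changes were 1.20 ± 0.25, 1.09 ± 0.25 and 1.31 ± 0.25 (edgeR adjusted p = 0.00664, 0.0142 and 0.00233). Top2a, the topoisomerase that untangles sister chromatids, stood at 62.7 and 43.6 CPM in controls 1 and 2, against 181, 115 and 142 across the ATP4B-DTR samples, 111, 151 and 178 across the GIF-DTR samples and 163, 188 and 161 across the GIF/ATP4B-DTR samples. All samples of the lines lay above the controls, with folds of 2.74, 2.76 and 3.21 (edgeR adjusted p = 0.00263, 0.00396 and 0.000599).

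**Figure D3:**
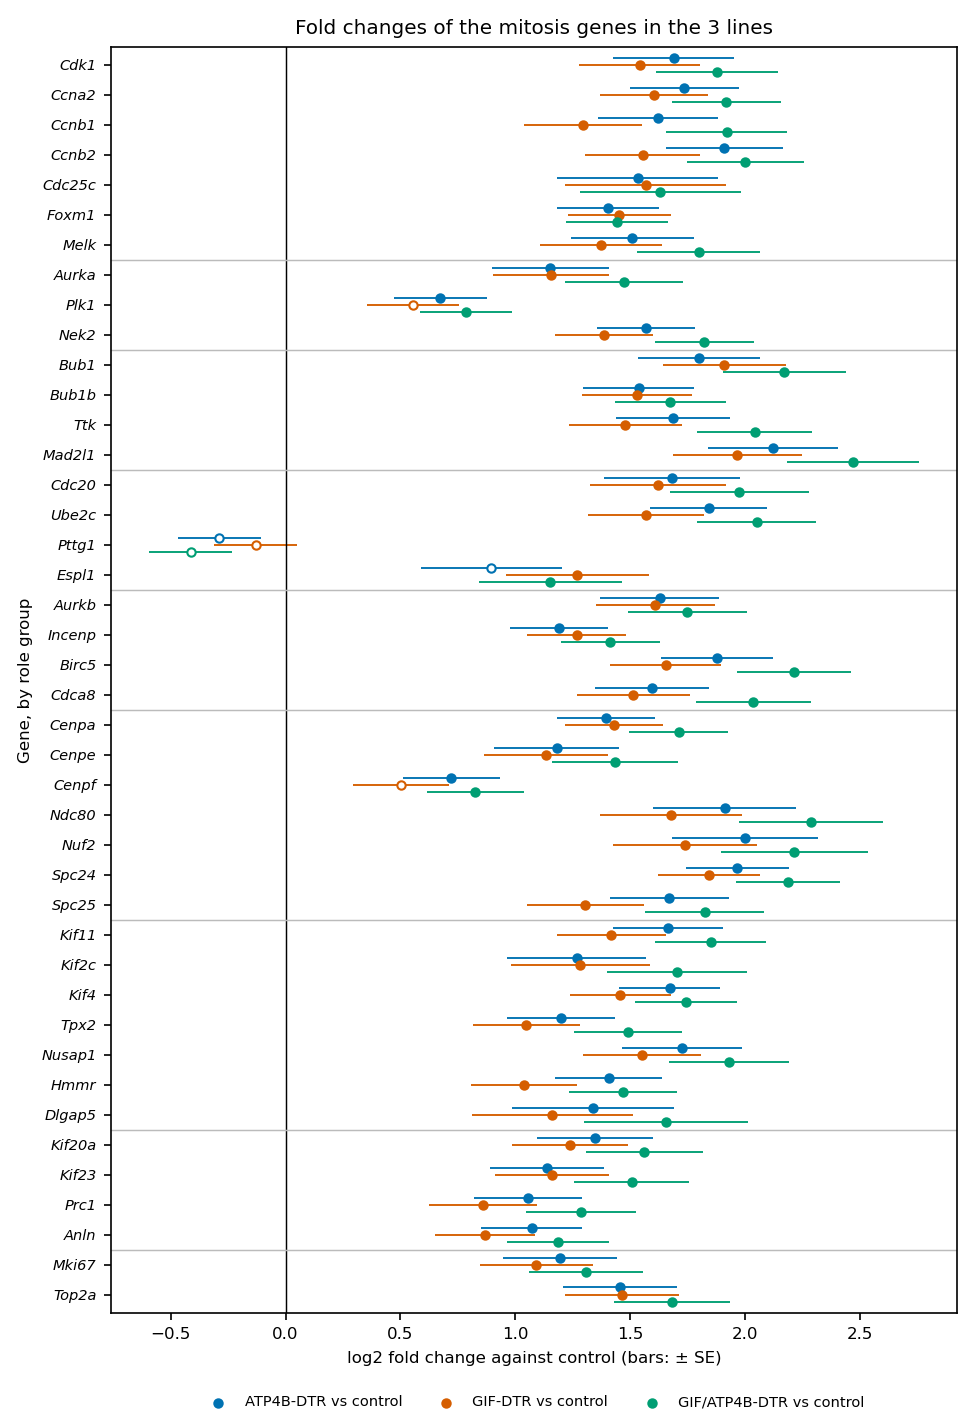
Log2 fold change of each of the 42 mitosis genes (rows, by role) against control, with SE bars, for each of the 3 lines; filled points passed an adjusted p under 0.05 and open points did not. Mad2l1 has the highest value in each line, Plk1 and Cenpf the lowest of the genes that rose in 2 or more lines, and Pttg1 alone lies below 0.

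The lines were also compared with each other. No mitosis gene passed the threshold between any pair of lines (0 of 42 in each comparison by edgeR and also 0 by the DESeq2 Wald test), against a background of 0.49% of all genes called between GIF-DTR and ATP4B-DTR, 0% between GIF/ATP4B-DTR and ATP4B-DTR, and 2.53% between GIF/ATP4B-DTR and GIF-DTR. At an unadjusted p under 0.05 the counts by edgeR were 0, 0 and 10, the 10 all higher in GIF/ATP4B-DTR than in GIF-DTR, where 8.15% of all genes were higher and 9.89% lower at that level. The same shares of all genes were 5.11% higher and 4.69% lower for GIF-DTR against ATP4B-DTR, and 4.41% higher and 6.03% lower for GIF/ATP4B-DTR against ATP4B-DTR. The largest of these differences was in Ccnb1, at 0.63 ± 0.22 on the log2 scale (edgeR adjusted p = 0.171), whose GIF/ATP4B-DTR samples all lay above its GIF-DTR samples. The standard errors of differences between lines were 0.16 to 0.30, and a missed threshold does not show that the lines are alike. The means had an order: GIF/ATP4B-DTR had the highest mean for 39 of the 42 genes, and GIF-DTR exceeded ATP4B-DTR for 11. The median differences were 0.22 for GIF/ATP4B-DTR over ATP4B-DTR, 0.35 for GIF/ATP4B-DTR over GIF-DTR and −0.13 for GIF-DTR over ATP4B-DTR. Leaving out 1 sample at a time moved them over 0.15 to 0.37, 0.20 to 0.51 and −0.29 to 0.05. The last changed sign without ATP4B-DTR 1 (0.05) or without GIF-DTR 1 (0.01), so the order of the 2 single lines rests on these samples. GIF/ATP4B-DTR over ATP4B-DTR was highest without ATP4B-DTR 1 and lowest without ATP4B-DTR 3, and over GIF-DTR highest without GIF-DTR 3 and lowest without GIF-DTR 1. These genes moved together within a sample, so that their shared order is close to a single observation on the samples and not 42 separate ones. Y-linked expression was present in all GIF/ATP4B-DTR samples and in no GIF-DTR sample. With a term for it, the median differences were −0.06 for GIF/ATP4B-DTR over either of the other lines; the term is estimated from the contrast of ATP4B-DTR 1 with ATP4B-DTR 2 and 3.

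The increase in GIF/ATP4B-DTR was smaller than the single-line increases combined. On the CPM scale, the summed level of the 42 genes rose above the control mean of 669 CPM by 1364 CPM in GIF/ATP4B-DTR, while the increments of ATP4B-DTR and GIF-DTR added up to 2032 CPM, so the first was 67.1% of the second. For 41 genes the GIF/ATP4B-DTR increment was below the sum. The share of all genes for which this held was not computed, and all these increments use the same 2 controls. On the log2 scale, the interaction term compares the step that takes ATP4B-DTR to GIF/ATP4B-DTR with the step that takes control to GIF-DTR (the first minus the second), and its median over the 42 genes was −1.13. A single gene, Spc24, passed the threshold for it (−1.62 ± 0.28, edgeR adjusted p = 0.0392), against 0.524% of all genes called lower, and 36 of the 42 were lower at an unadjusted p under 0.05, against 9.41% of all genes. Spc24 stood at 5.79 and 4.71 CPM in controls 1 and 2, against 21.3, 19.2 and 21.3 across the ATP4B-DTR samples, 13.8, 18.6 and 24.3 across the GIF-DTR samples and 24.1, 25.2 and 22.7 across the GIF/ATP4B-DTR samples. The count of genes past the adjusted threshold depended on single samples: it was 10 without GIF/ATP4B-DTR 2, 8 without GIF-DTR 1, 1 without ATP4B-DTR 3, and 0 without any other single sample, and it was 24 by the DESeq2 Wald test. The term contains both controls and all lines, so it does not stand apart from the comparisons above.

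Within groups, some samples were higher or lower than the others for nearly all of these genes. Control 1 was above control 2 for all 42. ATP4B-DTR 1 was the highest of its group for 41 genes, GIF-DTR 3 for 40 and GIF/ATP4B-DTR 2 for 30, while GIF-DTR 1 was the lowest of its group for 37. Others were mixed: GIF-DTR 2 lay above its group mean for 21 genes and below it for 21, and GIF/ATP4B-DTR 3 above for 15 and below for 27. Across the 11 samples, each gene's log2 CPM was set against the mean of the other 41: the median Pearson r was 0.98, 39 genes exceeded 0.9, and the lowest were Pttg1 at −0.52, Plk1 at 0.865 and Espl1 at 0.878. These r values are a description, since the points share libraries and the gap between controls and lines fills most of their range. Over deviations from the group means in the 9 samples of the lines the median r was 0.884, with Pttg1 (0.138) and Plk1 (0.352) again low. ATP4B-DTR 1, the sample of its group with Y-linked expression, was also the one with the highest mitosis level, and the part of that difference was not tested. GIF-DTR 1, the lowest for mitosis genes, whose code in the sample titles lies apart from those of all other line samples, had the highest summed fibroblast (737 CPM) and smooth muscle (2514 CPM) levels of the 9 samples, and control 2, the lower control, had 512 and 2134 CPM against 49.7 and 359 CPM in control 1. The part of these tissue differences in the mitosis levels was not tested.

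Markers of other dividing or incoming cells were examined beside these results. Counts of markers called stand beside 12.2%, 9.97% and 18.2% of all genes higher in the lines, and 9.39%, 6.82% and 15.4% lower. The 11 T and B lymphocyte markers summed to between 2.99 and 10.8 CPM in every sample, 5.70 to 10.8 CPM in control, 4.19 to 5.53 in ATP4B-DTR, 6.90 to 10.4 in GIF-DTR and 2.99 to 3.85 in GIF/ATP4B-DTR, and the B cell marker Ms4a1 had 3 counts or fewer everywhere. Of these 11, 2 passed the filter, 0 rose in any line, and 1 fell in GIF/ATP4B-DTR. The 6 erythroid precursor markers summed to between 0.77 and 2.88 CPM. The 12 macrophage and monocyte markers summed to 20.8 and 99.1 CPM in the controls, 67.0 to 118 CPM in ATP4B-DTR, 140 to 213 CPM in GIF-DTR and 56.9 to 90.7 CPM in GIF/ATP4B-DTR, with 1, 2 and 1 of 12 called higher. The 7 plasma cell markers summed to 37.6 and 508 CPM in the controls, 2.11 to 3.91 CPM in ATP4B-DTR, 3.70 to 27.1 CPM in GIF-DTR and 0.605 to 13.6 CPM in GIF/ATP4B-DTR, and of the 5 tested 5, 1 and 5 fell. The 6 endothelial markers summed to 7.41 and 69.1 CPM in the controls, 6.67 to 19.0 CPM in ATP4B-DTR, 15.9 to 44.7 CPM in GIF-DTR and 6.13 to 11.7 CPM in GIF/ATP4B-DTR, and 0, 0 and 1 of 6 fell. Parietal markers fell for 6, 4 and 6 of 7 and chief cell markers for 0, 2 and 2 of 4. Of 3 neck cell markers, 1 rose and 1 fell in each line, and of 4 pit cell markers 0, 0 and 1 fell. The 6 pancreas acinar markers summed to 26.1 and 23.2 CPM in controls 1 and 2 and to 27.4 to 70.1 CPM in ATP4B-DTR. Their sums were 41.0 to 44.9 CPM in GIF-DTR and 21.45 to 33.7 CPM in GIF/ATP4B-DTR, and of the 3 tested 1, 0 and 0 rose. The part of any of these cell types in the mitosis levels was not tested. Of 6 pan-epithelial genes, 1 rose and 1 fell in ATP4B-DTR, 0 changed in GIF-DTR and 2 rose in GIF/ATP4B-DTR.

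Genes that work beside the 42 were taken from lists of known pathway members. Among 38 genes of DNA replication and S phase, 35 rose in each single line and 36 in GIF/ATP4B-DTR, with medians of 1.5, 1.61 and 1.74 that were close to those of the mitosis genes. Tyms, which makes thymidylate, rose by 1.84 ± 0.20, 1.69 ± 0.20 and 2.06 ± 0.21 on the log2 scale, and Chaf1a, a subunit of the histone chaperone that assembles chromatin behind the fork, by 1.79 ± 0.22, 2.10 ± 0.23 and 2.19 ± 0.23. Of 30 other kinetochore and centromere genes, 23, 22 and 27 rose and 0 fell. Cenpk, a subunit of the constitutive centromere network, rose by 2.51 ± 0.35, 2.70 ± 0.36 and 2.98 ± 0.36 from 1.84 and 1.44 CPM in the controls, and Pmf1, a subunit of the Mis12 kinetochore complex, by 1.15 ± 0.18, 1.15 ± 0.18 and 1.45 ± 0.19. Of 21 other spindle and cytokinesis genes, 18, 17 and 19 rose, among them Cep55, which recruits the abscission machinery, by 1.63 ± 0.26, 1.69 ± 0.26 and 2.24 ± 0.27, and the kinesin gene Kif20b by 1.58 ± 0.22, 1.47 ± 0.22 and 1.89 ± 0.22. Of 8 condensin genes, which compact mitotic chromosomes, 6 rose in each line, Smc2 by 1.90 ± 0.23, 1.71 ± 0.23 and 2.07 ± 0.23 and Smc4 by 1.24 ± 0.18, 1.21 ± 0.18 and 1.63 ± 0.19.

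The APC/C core and cohesin lists, whose proteins also work outside mitosis, had medians nearer 0. Their counts stand beside 12.2%, 9.97% and 18.2% of all genes higher in the lines, and 9.39%, 6.82% and 15.4% lower. Of 15 core subunits of the APC/C, the ubiquitin ligase that Cdc20 activates, 3 rose in each single line and 8 in GIF/ATP4B-DTR, with medians of 0.31, 0.25 and 0.40, and 1 (Anapc5) fell in GIF/ATP4B-DTR (−0.38 ± 0.13, edgeR adjusted p = 0.0461). Anapc15 rose in each line, by 0.84 ± 0.21, 0.82 ± 0.21 and 1.21 ± 0.21, and so did Anapc7, by 0.53 ± 0.14, 0.58 ± 0.14 and 0.72 ± 0.14. Of 15 cohesin genes, 6, 5 and 7 rose, led by the acetyltransferase gene Esco2 (2.13 ± 0.25, 1.84 ± 0.25 and 2.27 ± 0.25) and by Cdca5, which encodes sororin (1.70 ± 0.26, 1.78 ± 0.26 and 2.00 ± 0.27). The cohesin loader gene Nipbl fell in each (−0.43 ± 0.13, −0.46 ± 0.13 and −0.47 ± 0.13). The whole cohesin list had medians of 0.23, 0.20 and 0.21. Esco2 and sororin are known to secure cohesion between replicated sister chromatids, and Nipbl to load cohesin throughout the cycle.

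The regulators of the cell cycle programme included genes that rose and genes that fell. Of 18 E2F, MuvB and MYB genes, 8, 9 and 13 rose and 2, 3 and 3 fell, in the same order of lines, with medians of 0.70, 0.59 and 0.82. E2f1, an activator of S phase genes, had the highest log2 fold change of the list in each line, at 2.25 ± 0.31, 2.24 ± 0.31 and 2.18 ± 0.31 (edgeR adjusted p = 0.00094, 0.00175 and 0.000461), and is named after its values were seen. Rbl2 encodes p130, the pocket protein of the DREAM repressor in resting cells, and stood at 69.4 and 79.1 CPM in controls 1 and 2, against 24.99, 26.1 and 26.8 across the ATP4B-DTR samples, 32.9, 27.6 and 30.5 across the GIF-DTR samples and 25.6, 18.3 and 19.7 across the GIF/ATP4B-DTR samples. Every sample of the lines lay below both controls, with log2 fold changes of −1.51 ± 0.15, −1.29 ± 0.15 and −1.81 ± 0.15 (edgeR adjusted p = 0.000187, 0.00108 and 2.47e-05). Tfdp2, a partner of E2F factors, also fell in each line (−0.97 ± 0.14, −0.72 ± 0.14 and −1.47 ± 0.14). The retinoblastoma gene Rb1 fell in GIF-DTR (−0.49 ± 0.15, edgeR adjusted p = 0.043), and Lin52, a MuvB subunit, fell in GIF/ATP4B-DTR (−0.64 ± 0.21, adjusted p = 0.0354). Of 15 tested genes that act as brakes on the cycle, 2, 3 and 3 rose and 1, 2 and 4 fell. The shares of all genes tested are those given above for the APC/C and cohesin lists. Pkmyt1, a kinase that inhibits Cdk1, rose by 1.14 ± 0.22, 1.38 ± 0.22 and 1.20 ± 0.22, and Cdkn2c, an inhibitor of the G1 kinases, by 1.23 ± 0.22, 1.06 ± 0.22 and 0.99 ± 0.22. Gadd45b rose in GIF-DTR (0.94 ± 0.24) and GIF/ATP4B-DTR (0.81 ± 0.24). Cdkn1c, which encodes the inhibitor p57, fell in GIF-DTR (−1.67 ± 0.40, edgeR adjusted p = 0.0181) and in GIF/ATP4B-DTR (−2.10 ± 0.40, adjusted p = 0.00256), with control values of 8.75 and 30.4 CPM that lay far apart.

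**Figure D4:**
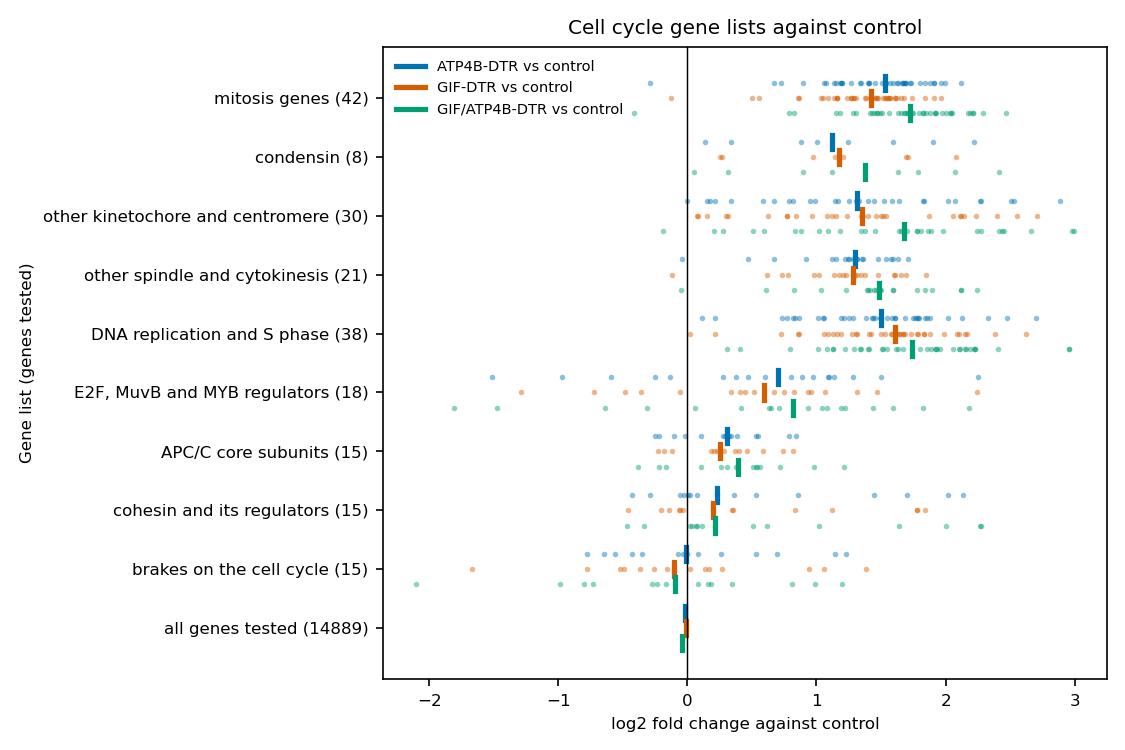
Log2 fold change against control (horizontal axis) of every tested gene (points) in the mitosis genes and 8 related lists, with the median of each list (vertical marks) for the 3 lines, and the median of all 14889 genes tested in the lowest row. The medians of the mitosis, S phase, kinetochore, spindle and condensin lists lie above 1, while those of the APC/C core, cohesin and brake lists lie between −0.11 and 0.40.

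The counts against control depended most on control 2, the sample with the lower mitosis levels and the higher stromal markers. Without it, 27, 20 and 36 genes were called in the ATP4B-DTR, GIF-DTR and then GIF/ATP4B-DTR line, and the medians were 1.30, 1.21 and 1.495; the lone control is then assumed to vary as the other groups do. The 19 genes that then lost the call in GIF-DTR were Ccnb1, Cdc25c, Melk, Aurka, Cdc20, Espl1, Cenpe, Ndc80, Nuf2, Spc25, Kif2c, Tpx2, Hmmr, Dlgap5, Kif20a, Kif23, Prc1, Anln and Mki67. The 13 that lost it in ATP4B-DTR were Cdc25c, Aurka, Plk1, Cenpe, Cenpf, Kif2c, Tpx2, Dlgap5, Kif20a, Kif23, Prc1, Anln and Mki67. The 5 that lost it in GIF/ATP4B-DTR were Cdc25c, Plk1, Espl1, Cenpf and Dlgap5. Without GIF-DTR 3, 32 genes were called in GIF-DTR, and those lost were Espl1, Cenpe, Kif2c, Hmmr, Dlgap5, Prc1 and Anln. With a term for Y-linked expression, 39, 28 and 41 genes were called and the medians in ATP4B-DTR and GIF-DTR were 1.84 and 1.81. The 11 genes that lost the GIF-DTR call under this term were Ccnb1, Cdc25c, Espl1, Cenpe, Spc25, Kif2c, Hmmr, Dlgap5, Kif20a, Prc1 and Anln, with adjusted p-values from 0.0519 to 0.131, and Plk1 lost the ATP4B-DTR call. Apart from Pttg1, the log2 fold changes of these genes stayed above 0 in all 3 lines under all 20 alternatives.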

How the data were processed

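Bulk RNA-seq of 11 mouse gastric corpus samples was analysed from the authors' deposited table of estimated counts per gene, of which 30.7% of nonzero values are fractional; the table's columns were matched to samples by name and 0 columns were left unused. Per the labels' protocols, total RNA was made into libraries with a stranded mRNA kit, and the submitters' processing notes name mm10. The aligner and quantifier are not given in the sources used here. Symbols came from a table of names matching 99.2% of identifiers, and coordinates and exon lengths from GENCODE M21 (GRCm38), in which 93.4% of the versioned identifiers occur.

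Counts were rounded, filtered with filterByExpr (14889 genes left), scaled by TMM and fitted with edgeR 4.0.16 (R 4.3.3) by a robust quasi-likelihood model with 4 group coefficients over all 11 samples, with Benjamini-Hochberg adjustment over all genes tested and a threshold of 0.05. The design had assumed whole counts; the same tests were kept. At these depths 3 counts are 0.107 to 0.166 CPM. The method was also run on simulated data in which far fewer genes changed than were called here, so that run does not test the setting of these data. Replicates of a group differed by more than sampling noise. Sequences and motif searches used RefSeq windows (GRCm38.p6).

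The 42 genes, the role groups and the other lists were chosen with earlier results of these data known. Genes given per-sample values were the 2 most abundant of each role, those with the highest and lowest fold change in a line, and those not called in a line; of each other list, the 2 genes with the lowest p in GIF/ATP4B-DTR are named, with those called against the list's direction. Per-sample values of Spc24 and Rbl2 were added after their results were seen. Alternatives were other scalings, the DESeq2 1.42.0 Wald test, other filters, no robust moderation, a Y-linked term, only the groups compared, and leaving out each sample in turn.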

Additional observations from a re-analysis of the deposited data

How the results depend on the processing

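No paired analysis was possible because the groups share no replicate number in the labels: the titles of the line samples carry codes that do not recur between groups, and the numbers used here for them follow accession order. Scaling by library totals alone put the median log2 fold change of all genes at 0.28 to 0.35, against −0.04 to −0.01 with TMM, and the medians of the mitosis genes against control were then 1.87 for ATP4B-DTR, 1.80 for GIF-DTR and 2.05 for GIF/ATP4B-DTR and −1.49 for the interaction. Under that scaling Pttg1 turned to 0.0213 in ATP4B-DTR and 0.22 in GIF-DTR, and all genes called in GIF-DTR went from 1485 higher and 1015 lower to 3864 higher and 301 lower. A term for Y-linked expression gave medians of 1.84 in ATP4B-DTR and 1.81 in GIF-DTR, −0.0604 for GIF/ATP4B-DTR over ATP4B-DTR, −0.0626 over GIF-DTR and −1.82 for the interaction, and turned Pttg1 to 0.18 in GIF-DTR; for these values the cause was not tested. The number of mitosis genes called for the interaction was 31 with library totals, 24 by the DESeq2 Wald test, 10 with no filter on low counts, 7 with at least 10 counts in every sample and 0 with the Y-linked term. Leaving out 1 sample at a time gave 27 to 41 calls for ATP4B-DTR, 20 to 40 for GIF-DTR, 36 to 42 for GIF/ATP4B-DTR and 0 to 10 for the interaction, whose median ran from −1.41 to −0.97; fewer samples enter these fits. Between lines, 0 genes were called under every alternative run. Of 2520 single-gene values under the alternatives, 2431 kept direction and side of the threshold, 76 lost the call, 10 gained it and 3 (Pttg1) reversed. With 2 controls and 3 samples per line, spread between samples, not counting depth, limits these comparisons.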
